A study of Mus musculus with 1119 samples.

Results

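Hair germ cells of the resting follicle were described from 68 single cells. The authors' deposited annotation names 71 cells as telogen hair germ cells, all of them from 1 plate sorted at postnatal day 21, among 1119 cells in the series. Cells with at least 2000 genes at 1 TPM (transcripts scaled to a fixed total per cell) or more were kept. The 3 cells left out had 82, 631 and 1849 such genes, whereas the kept cells had 4421 to 9679, with a median of 6334.5. A gene is called seen in a cell at a TPM of 1 or more.

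The cells of days 21 to 27 came from the Lgr5-eGFPiresCreER;R26-tdTomato mouse, in which green fluorescent protein and an inducible Cre recombinase are expressed from the Lgr5 locus and tdTomato is a Cre reporter. The germ cells and all cells compared with them here share this genotype. They were sorted from back skin by flow cytometry on GFP, tdTomato, integrin α6, integrin β1, CD34 and P-cadherin into 96-well plates and amplified by Smart-seq2, which reads along the whole transcript. The gates, the number of animals and any Cre induction are not given in the sources used here. The other types of the same table were 39 telogen bulge cells at day 21 (39 kept), 84 kept hair germ cells of the first anagen stage (Ana1) at days 23 to 27, and kept matrix cells of the second (Ana2) at days 25 to 27, with 55, 75 and 66 cells on 3 plates. The germ cells and the bulge cells share the number that opens their plate names but use the same wells, so they sat on separate plates, and germ type and plate cannot be told apart. The 2 first-stage cells of plate name 914hg and the matrix cells of 914mat share no well and may be of 1 plate. No animal is named, so each type counts as 1 sample, and all values below are descriptions with no test.

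The hair germ is a small cluster of keratinocytes between the bulge, where the slow-cycling stem cells of the follicle rest, and the dermal papilla, the mesenchymal cell cluster that signals to the follicle. At the start of a new hair cycle the germ is known to respond before the bulge, to WNT and FGF signals and to the relief of BMP inhibition, and it gives rise to the matrix that builds the hair. P-cadherin and Lgr5 are known labels of the germ and CD34 of the bulge.

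In 4 wells the cells stood apart. The cell in well F1 had fibroblast genes at high level, with Col1a1 at a TPM of 2978, Col3a1 at 2678, Dcn at 2302 and Vim at 950, and it had the epithelial keratins Krt14, Krt5 and Krt15 and the apolipoprotein gene Apoe at 0. The cell in well B4 held 4 haemoglobin genes at a summed TPM of 195054, which is 19.5% of its total, and these were listed at 0 in every other germ cell. The cells in wells B7 and E10 carried genes of the upper follicle and surface epidermis: Defb6 was at 3352 in B7 and Plet1 at 637 in E10. Values that these 4 cells move are given with and without them.

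Markers of most other cell types were low. Of 12 immune markers, 9 were below a TPM of 1 in every cell, and the summed level of the list was 0 in the median cell and 39.9 at most. Of 12 endothelial and mural markers, 9 were below 1 in every cell, while Cspg4, which is also a known gene of bulge keratinocytes, was seen in 65 of 68 cells. The 15 fibroblast and dermal papilla markers had a summed level of 0 to 10820 with a median of 1.08, and the highest value was that of F1. Of 10 melanocyte markers, 4 (Mlana, Tyrp1, Kit and Slc45a2) were at 0 in every cell, whereas Tyr was seen in 44 cells at no more than a TPM of 9.34 and Mitf in 35, and the sum ranged from 0 to 117.4. The 10 Merkel and neural markers summed to 0 to 89.6, with Krt20, Krt18, Atoh1 and Isl1 at 0. The 13 markers of surface epidermis and infundibulum summed to 2.38 to 4488, with a median of 93.7, and Sbsn, Krt10 and Lrig1 were each seen in at least 50% of cells. The 10 sebaceous gland markers summed to 0 to 222.6 and the 14 matrix and inner root sheath markers to 0 to 282.4. The labels give sex as mixed, yet at least 1 of 4 Y-linked genes was seen in 62 of 68 germ cells (91.2%, exact 95% interval 81.8 to 96.7), and the 3 cells with Xist, a transcript of the inactive X chromosome, also held a Y-linked gene. In the other types, Y-linked genes were seen in 89.7% of bulge, 86.9% of first-stage and 93.9% of matrix cells.

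Of the 7 marker genes of the type, each was seen in at least 76.5% of cells. They were chosen for being high in these cells, so their levels are a description. Pdgfa, a platelet-derived growth factor chain that acts on fibroblasts, ranged from 0 through a median of 116.7 to a TPM of 475 and was seen in 66 of 68 cells. Ctsl, a lysosomal protease, had a lowest, median and highest TPM of 0, 96.7 and 523 and was seen in 62 cells. Rasgef1b, an exchange factor for small GTPases, ran from 0 through 89.1 to 585 and was seen in 61 cells. The 3 medians lay well within the spread of each gene over cells.

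Mfap2, a protein of microfibrils, had a median TPM of 61.6 and a highest of 378.7 and was seen in 56 cells. Foxi3, a forkhead transcription factor of placodes and hair germ, had a median of 52.4 and a highest of 305.3 and was listed below 1 in 16 cells, the most of the 7. Cxcl12, a chemokine, had a median of 50.5 and a highest of 450, seen in 61 cells. Abi3bp, a matrix-associated protein, had a median of 49.05 and a highest of 405, also seen in 61 cells. In 38 cells all 7 were seen, and the cell with the fewest held 2. In the median bulge cell 3 of the 7 were seen, in the median first-stage cell 5 and in the median matrix cell 3.5. Each of these types also had a cell with all 7.

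**Figure D1:**
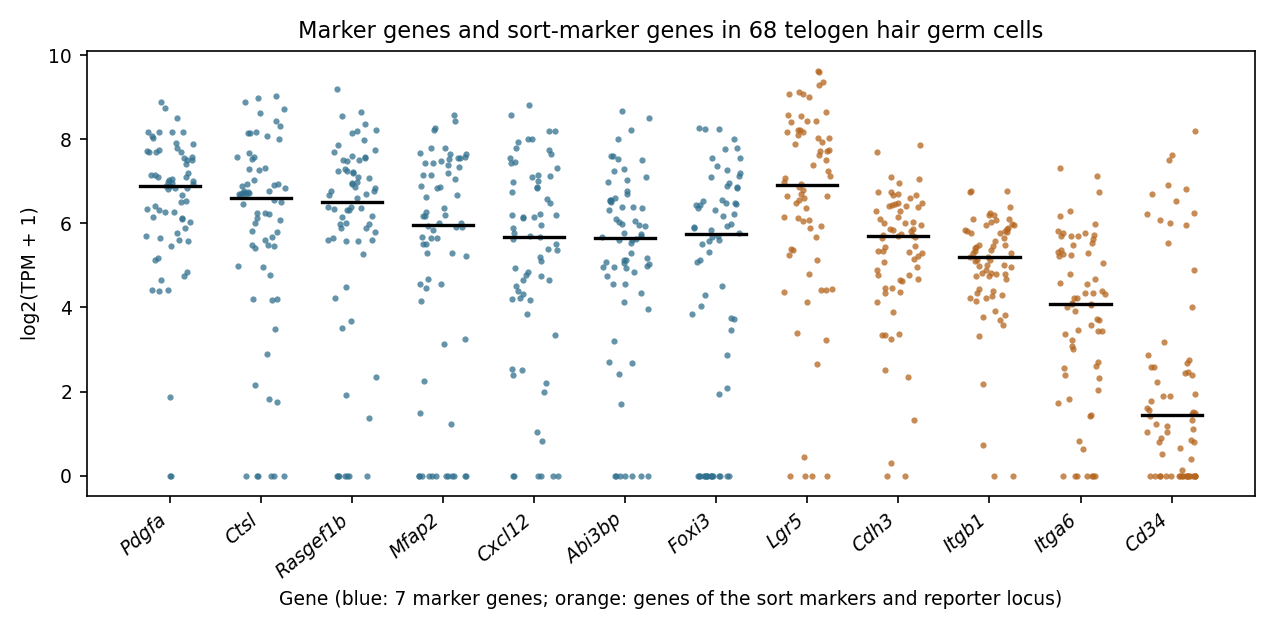
Level of 12 genes in each of 68 telogen hair germ cells, as log2(TPM + 1), 1 point per cell with a black bar at the median: 7 marker genes (blue) and the genes of the Lgr5 reporter locus and of the sorted surface proteins (orange). Foxi3 was below a TPM of 1 in 16 cells and Cd34 in 27, while Pdgfa was below 1 in 2.

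Of the genes of the sorted proteins, Cdh3, which encodes P-cadherin, had a median TPM of 50.6 and was seen in 65 cells, and Itgb1, integrin β1, had a median of 35.9 and was also seen in 65. Itga6, integrin α6, had a median of 16.03 and was seen in 59 cells. Lgr5, an R-spondin receptor, ranged from 0 through 118.97 to 786 and was seen in 63 cells. Cd34 had a median of 1.71 and a highest TPM of 291.9. It was seen in 41 cells at a TPM of 1, but in 29.4% of cells at a TPM of 5, so most of its values were low. In the plot of marker levels by cell, Cd34 is the gene whose median lies closest to 0.

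The most abundant named transcripts included those of basal keratins. By mean TPM Apoe led, with a median of 2783 (highest 8119). Krt15, Krt14 and Krt5 ranked 2, 5 and 7, with Eef1a1, Lars2 and Actb between them. Krt15, known from the bulge and basal layer, had a median of 1810, Krt14 one of 1731 and Krt5 one of 1431. Each of these 3 keratins was seen in every cell but F1. Krt17, a keratin of the follicle's outer layers, had a median of 537 and a highest of 7455. Of 28 keratin genes listed, 5 were seen in at least 50% of cells, the 4 above and Krt10, and 6 were at 0 in every cell. Krt80 was seen in 33 cells.

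Adhesion to the basement membrane was broadly expressed: 16 of 18 genes of basal adhesion were seen in at least 50% of cells, and 14 in at least 90%. Col17a1, a hemidesmosomal collagen, had a median TPM of 262.1, Plec, the linker plectin, one of 233.7 and Itgb4, integrin β4, one of 163.3. Over all genes seen in any kept cell, 28.4% (5715 of 20093) were seen in at least 50% of cells. Of 15 desmosome and cadherin genes, 13 reached 50%, led by Perp (median 382.5) and Jup (median 291.8), both parts of desmosomes. Mt1, a metallothionein, had a lowest, median and highest TPM of 5.28, 311.4 and 2998.

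Among 30 transcription factors of follicle stem cells, 20 were seen in at least 50% of cells. Trp63, the p63 master factor of basal epithelia, had a median TPM of 191.4 and was seen in 67 cells. Nfix, a nuclear factor I protein, was seen in all 68 cells, from 13.7 to 206.9 with a median of 89.3. Foxp1, Gata3 and Tbx1 had medians of 50.2, 55.1 and 51.8. Sox9, a factor of bulge and outer root sheath, had a median of 38.1 and was seen in 55 cells, and Lef1, a nuclear partner of β-catenin, had one of 29.2 and was seen in 56. Vdr, the vitamin D receptor required for hair cycling, had a median of 235.7 (highest 1287) and was missing only from F1 among the kept cells. Runx1, a factor of follicle activation, had a median of 43.3 and was seen in 65 cells.

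Genes that receive and answer WNT signals were widely seen, whereas ligand genes were sparse. Of 19 WNT ligand genes, 1 was seen in at least 50% of cells and 4 were listed at 0. Wnt10b, a ligand of placodes and hair germ, had the highest mean TPM at 16.3 with a median of 0, in 31 of 68 cells (45.6%, exact 95% interval 33.4 to 58.1). Wnt4 was the one seen most often, in 36 cells, at a median of 1.86. Of 18 receptor genes, 12 were seen in at least 50% of cells. Lgr6, a relative of Lgr5, had a median of 55.7 and Lrp6, a co-receptor, one of 18.5.

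Of 14 WNT response genes, 9 were seen in at least 50% of cells. Axin2, a negative-feedback scaffold, ranged from 0 through a median of 26.6 to a TPM of 143.3, and was seen in 57 cells. Ccnd1, cyclin D1, had a median of 31.8, Myc one of 28.1 and Tcf7, a partner of β-catenin, one of 8.18. Secreted inhibitors were present in part of the cells. Dkk3, a member of the Dickkopf family, had a median of 62.6 in 64 cells, Wif1, which binds WNT ligands, one of 22.6 in 43 cells, and Notum, a WNT deacylase, a median of 0 in 23 cells. Sostdc1, which is listed as an inhibitor of both WNT and BMP, also had a median of 0 and was seen in 31 cells.

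Of 9 BMP response genes, 4 were seen in at least 50% of cells, and 3 of 10 genes on the BMP ligand list were seen in at least 50% of cells, Bmp7, Bmp2 and Bmp1, of which the last encodes a protease. Id3 and Id1, inhibitors of DNA binding that BMP signals are known to induce, had median TPMs of 110 and 48.7, with highest values of 611 and 372.1. Bmp7 had a median of 26.8 in 56 cells and Bmp2 one of 10.1 in 51, while Bmp4 was seen in 4 cells. Among inhibitors, Twsg1 was seen in 63 cells with a median of 24.3. Fst, the activin and BMP antagonist follistatin, was seen in 30 cells and Grem1 in 15, both with a median of 0.

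Hedgehog receptors and transcription factors were seen in most cells, and the ligand gene Shh in 6 (8.82%, exact 95% interval 3.31 to 18.2), at no more than a TPM of 5.49. Gli2, the activator, had a median of 43.6, in 65 cells, and Boc, a co-receptor, one of 37.4, in 63. Ptch1 and Gli1, both receptor-pathway genes that hedgehog signals induce, were each seen in 51 cells, with medians of 10.1 and 9.39.

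Transcripts of Fgfr1, Fgfr2 and Fgfr3 were seen in nearly every cell. Fgfr3 had a lowest, median and highest TPM of 0, 199.1 and 888, Fgfr1 of 22.9, 173.03 and 602, and Fgfr2 of 0, 73.8 and 283.4. Of the 15 FGF ligand and binding protein genes, Fgf1 was the only one seen in at least 50% of cells (38 cells), and 4 stayed below 1 in every cell. Fgf18, known from the bulge, was seen in 2 cells. Response genes of FGF and ERK were seen widely. Dusp6, an ERK phosphatase, had a median of 69.1 and a highest of 563, and Etv4, an ETS factor, had a median of 36.7 and a highest of 233.6, each in 55 cells.

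Signals known to act on neighbouring tissue were led by chemokines. Cxcl14 had a median TPM of 168.4 in 66 cells. Ccl27a reached 2080 with a mean of 288.5 in 52 cells, and 5 of 21 chemokine and cytokine genes were at 0. Kitl, the ligand that melanocytes need, had a median of 29.9 in 55 cells. Of 19 ephrin and Eph receptor genes, 10 were seen in at least 50% of cells, with medians of 95.6 for Efna1 and 83.8 for Efnb1. Among guidance genes, the plexin receptor Plxnb1 had a median of 66.7 and the ligand Sema3c one of 29.9.

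**Figure D2:**
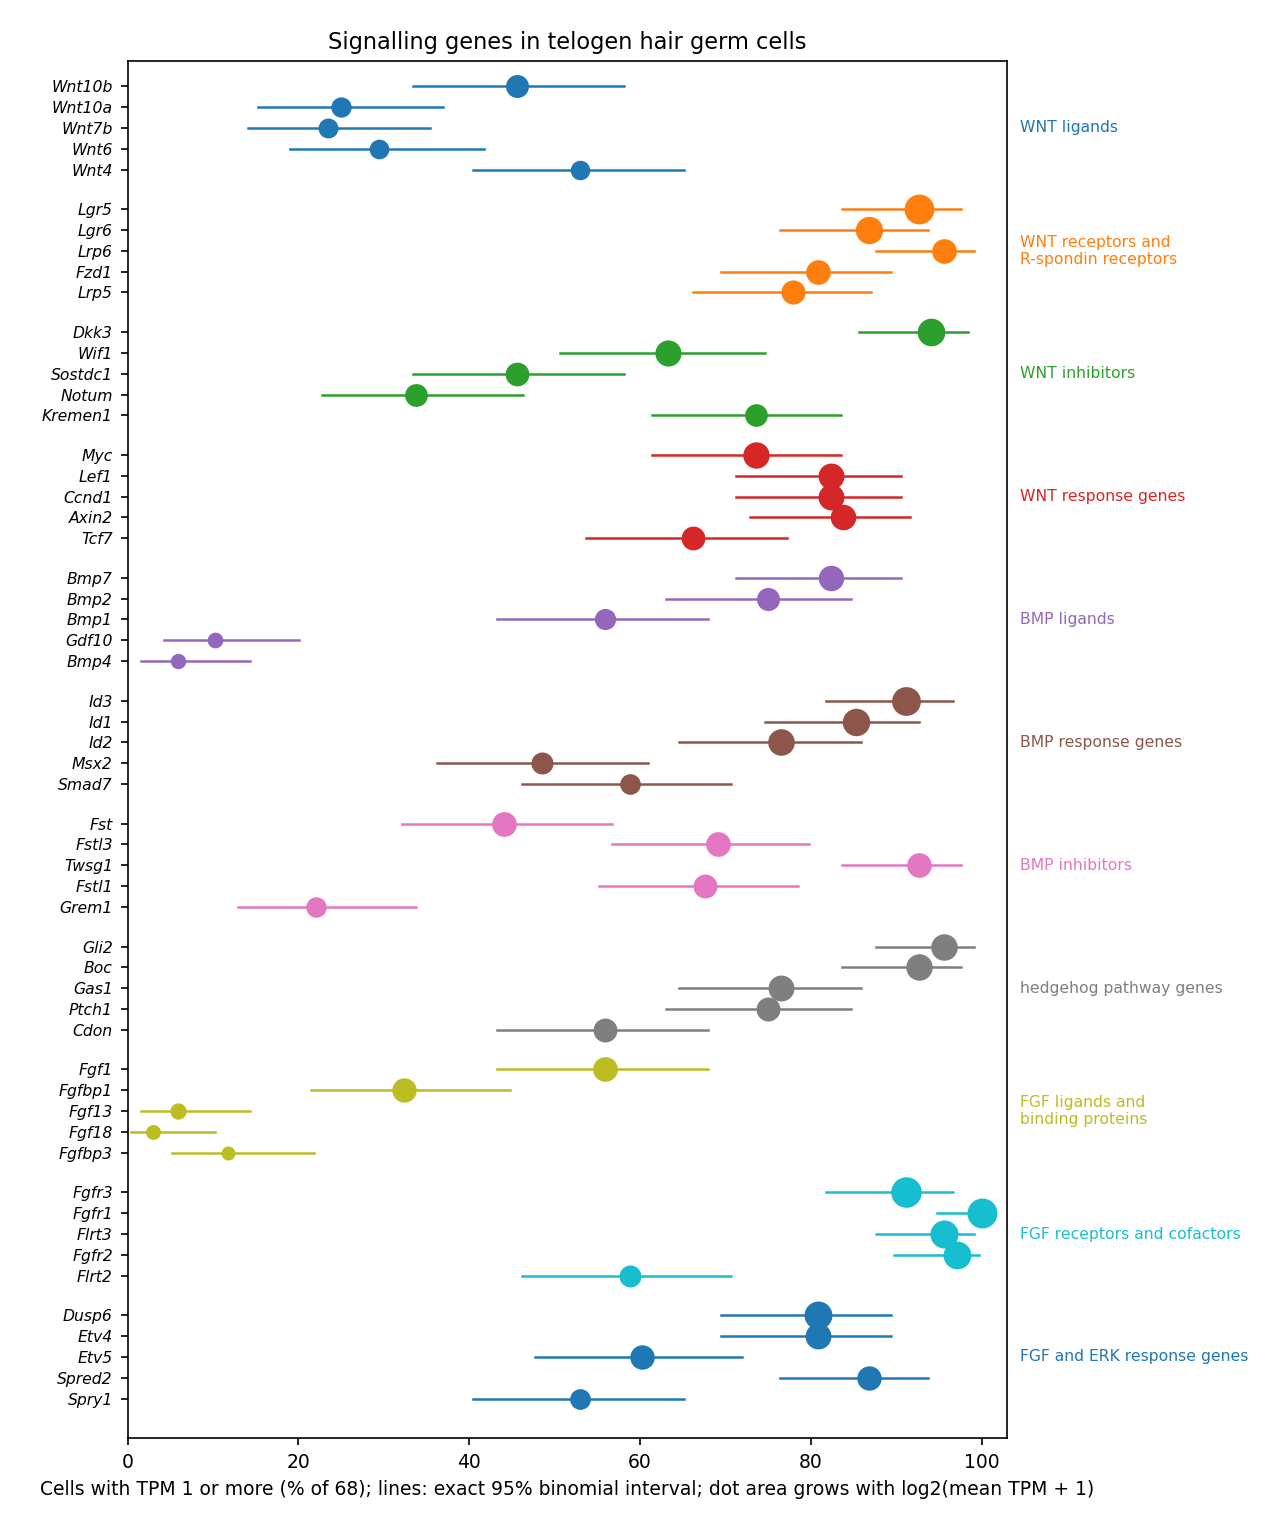
Share of 68 telogen hair germ cells in which each gene had a TPM of 1 or more, with exact 95% binomial intervals as lines and dot area growing with log2(mean TPM + 1), for up to 5 genes of high mean in each of 11 signalling lists, each gene shown once. FGF receptors lie at 58.8% to 100%, whereas the 5 WNT ligands lie at 23.5% to 52.9%.

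Transcripts of division were nearly missing. Of 22 genes of G2 and mitosis, the median cell held 1 and no cell more than 3. Hmgb2, a chromatin protein also used outside division, was the only one of the 22 seen in at least 50% of cells. Mki67 was seen in 3 of 68 cells (4.41%, exact 95% interval 0.919 to 12.4) at no more than a TPM of 8.29, and Top2a in 2 cells. Of 24 S phase genes the median cell held 7, and the cell in well H1 held 19. That cell had Mki67 and Top2a below a TPM of 1. D-type cyclin and kinase genes were abundant all the same: Ccnd3 had a median of 123.6 and Cdk4 one of 103.1. In first-stage anagen germ cells the median cell held 19 of the 24 S phase genes and 3 of the 22 G2 and mitosis genes. The median bulge cell and the median matrix cell were near the germ, each with 6 S phase genes and 1 of G2 and mitosis. Single matrix cells and single first-stage cells nevertheless reached all 24 S phase genes and all 22 of G2 and mitosis. The highest counts in bulge cells were 12 and 3.

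Variation between cells was measured on TPM rescaled to its full total after leaving out rows of ribosomal RNA, spike-in and mitochondrial genes, called rescaled TPM here. For each gene the log2 of the squared coefficient of variation (CV) was set against the median of genes of like level, and the difference is called the CV residual. The median CV of 2911 named genes with a mean TPM of at least 20 was 1.06. Bgn, Dusp1, Myoc, Sparc and Zfp36 had the largest residuals, from 4.81 to 3.69.

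Part of this rank rested on the 4 cells that stood apart. Bgn, a matrix proteoglycan, had its highest TPM of 1672 in F1, and its residual was 2.15 without the 4 cells. Sparc, another matrix protein, had 3096 in F1 and moved from a residual of 4.24 to 0.86. The early-response gene Nr4a1 moved from 3.43 to 0.64, with its highest value in B4. Sfn, an epidermal 14-3-3 protein, moved from 3.33 to 1.12 and Lypd3 from 3.49 to 1.54, both highest in E10. The residual of Dusp1 moved from 4.69 to 2.95 and that of Zfp36 from 3.69 to 2.195, also through E10.

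The others kept a residual of at least 2.32 without those cells. Myoc, the secreted protein myocilin, was at 4.29 with all cells and 4.52 without the 4. It was seen in 16 cells, with a median of 0 and a highest TPM of 1630. Ndrg1, a gene of stress and differentiation, gave 3.26 and 3.41, with a median of 41.9 and a highest of 1638. Fn1, fibronectin, was seen in 56 cells with a median of 4.19 and a highest of 1205. Dmkn, the epidermal secreted protein dermokine, was seen in 33 cells, with a highest of 1598. Ccl27b, S100a4, Gadd45g and Mgp were seen in a minority of cells and Ctgf in 60.3%, and the early-response genes Fos, Egr1, Cyr61 and Fosl1 completed the 20.

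The 10 steadiest genes by this measure took in translation and RNA-processing genes, the chromatin and transcription regulators Tcf20, Top2b and Kmt2a, and the protocadherin Fat1. Eef1a1, a translation elongation factor, ranged from a TPM of 536 through 2172 to 4139 (CV 0.30), and Tpt1 from 221.6 through 958 to 1802 (CV 0.33). Itm2b, a membrane protein, ranged from 133.6 to 580 (CV 0.34). Son, a splicing protein, had the smallest residual at -2.33, with a range of 10.1 to 96.9.

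Co-expression was measured as Spearman's rho over the 68 cells on rescaled TPM, among 8032 named genes seen in 20% to 90% of cells. All values come from cells of 1 plate and share their libraries and depth, and the rank of genes seen per cell was removed as an alternative. Over all 32252496 pairs the median was 0.02, the lowest 1% lay at or below -0.27 and the highest 1% at or above 0.31. The pairs below are those at the ends of this range or those of known pathways.

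One set of genes was high in the same cells and took in Postn, Dmkn, Sbsn and Grem1 of the bulge list. Postn, a matricellular protein, was seen in 29 of 68 cells and Krt80 in 33, and 24 cells held both (rho 0.71, and 0.69 given the number of genes seen). Sbsn and Dmkn, secreted epidermal proteins encoded side by side on chromosome 7, gave 0.76. Thsd1, a thrombospondin-domain membrane protein, gave 0.72 with the matrix protein Adamtsl4 and 0.71 with Krt80. Fst and Grem1, both antagonists of BMP or activin, gave 0.67. All 15 cells with Grem1 also held Fst, and 15 further cells held Fst alone. Aqp3, a water channel, loaded with this set on the first principal component.

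A second set was high in the other cells. Ly6e, a surface protein, was seen in 46 cells. Slc7a2, a transporter of cationic amino acids, gave 0.67 with Npnt, the basement membrane protein nephronectin. Cldn10, a claudin, and Robo1, a guidance receptor, gave 0.71 and were seen together in 22 cells. The highest value of all, 0.88 for Prss23 and Prss23os, joins a gene with its antisense neighbour, and without strand their reads cannot be told apart.

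The sets were opposed. Nrp2, a semaphorin and VEGF co-receptor, and Postn gave -0.63: 7 cells held both, 30 held Nrp2 alone, 22 held Postn alone and 9 neither. Abi3bp gave -0.63 with Krt80, and all 7 cells without Abi3bp held Krt80. Cldn10 and the bulge factor Nfatc1 gave -0.67, and Sox13 and Capns2 gave -0.68, the lowest of all pairs. Postn and Foxi3 were seen together in 17 cells, with 12 of Postn alone, 35 of Foxi3 alone and 4 of neither (rho -0.50). Each of these 5 values lay between -0.48 and -0.69 given the number of genes seen or without the 4 cells that stood apart.

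A score for the 19 bulge genes was made as the mean of log2(rescaled TPM + 1) over the 18 members seen in at least 10% of cells, each centred on its mean. It ran from -2.71 through a median of -0.51 to 4.38 (SD 1.63), so that more cells lay below the mean than above it. The score of the 7 markers was lower where it was high (rho -0.49, and -0.60 without the 4 cells). The score of 26 ribosomal protein genes was also lower in cells of high bulge score (rho -0.61), and those of outer root sheath and of S100 and annexin genes were higher (0.63 and 0.62). The bulge score had a rho of -0.27 with the number of genes seen and of 0.29 with the share of spike-in RNA. Given the number of genes seen, the relation to the marker score was -0.45 and that to the ribosomal protein score -0.58, while the part of the spike-in share was not tested. Over the 1176 pairs of list scores the median rho was 0.07 and the range -0.61 to 0.71.

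The first principal component of the 500 genes of largest variance followed the same order, with 6.81% of the variance. Sbsn, Postn, Dmkn, Krt80 and Adamtsl4 led one end and Ly6e, Slc7a2, Nrp2 and Cldn10 the other. It had a rho of 0.77 with the bulge score, -0.75 with the marker score and -0.57 with the number of genes seen. Both scores hold some of the genes of the component, among them Postn, Sbsn and Dmkn of the bulge list and the marker Mfap2. Plate row and column gave 0.08 and 0.02. Ifitm3, Ccl27a and Cd200 led one end of the next component, and early-response genes the third, with 4.27% and 2.99% of the variance.

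**Figure D3:**
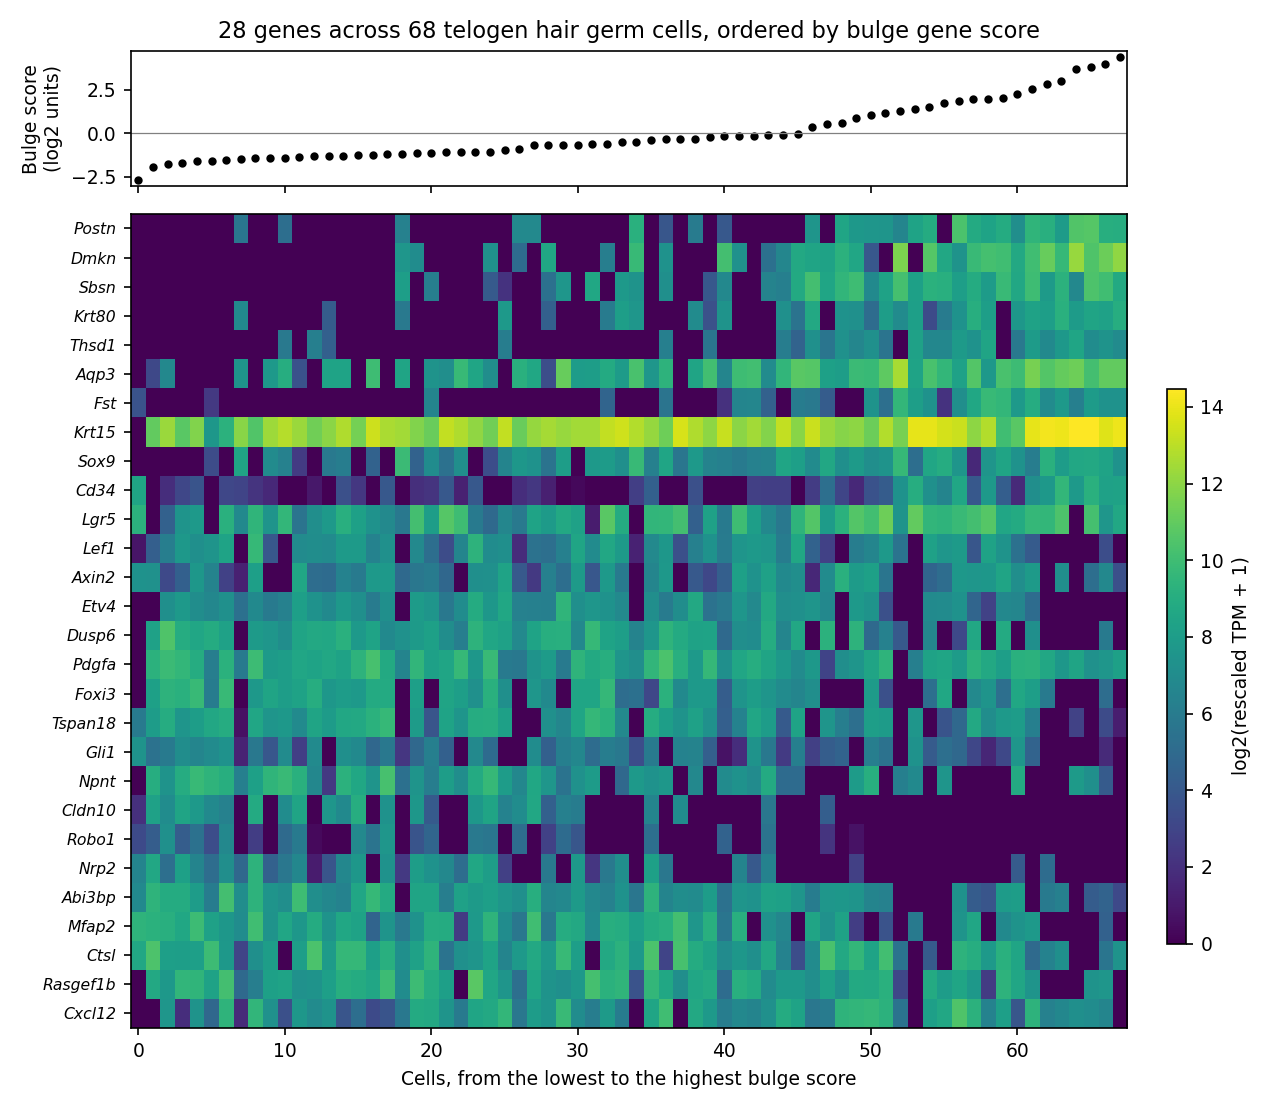
Level of 28 genes, as log2(rescaled TPM + 1), in 68 telogen hair germ cells (columns) ordered by the score of bulge genes, which is shown on top from -2.71 to 4.38. The genes were picked from the co-expression results for display. Postn, Dmkn, Sbsn, Krt15 and Cd34 are members of the score, so their rise along it is built into the order. Postn to Fst, in the upper rows, fill in toward the right, where Cldn10 and Robo1 are at 0.

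The marker genes themselves did not all move together. Pdgfa and Foxi3 were the closest pair of the 7 (rho 0.69, and 0.65 without the 4 cells), and each of the 52 cells with Foxi3 held Pdgfa. Foxi3 was also close to Tspan18, a tetraspanin (0.64), Bmp7 (0.60) and the homeobox gene Msx2 (0.56). Pdgfa shared Tspan18 and Bmp7 with it (0.54 and 0.53) and had Hs3st6, a heparan sulfate sulfotransferase, at 0.55. Ctsl, Abi3bp and Mfap2 gave 0.43 to 0.45 with each other. They were not a group apart from Foxi3 and Pdgfa. Abi3bp gave 0.40 with Foxi3 and 0.38 with Pdgfa, and Mfap2 gave 0.35 and 0.28. Rasgef1b gave 0.45 with both Abi3bp and Foxi3. Only Ctsl of these was low against Foxi3 and Pdgfa, at 0.01 and 0.12. Cxcl12 stood alone, with rho between 0.05 and 0.27 to the other 6 (-0.03 to 0.18 without the 4 cells that stood apart), and its nearest gene was Cd200 (0.49), a surface protein that marks follicle stem cells.

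Neighbours of the other markers were of several kinds. Abi3bp was closest to Robo1 (0.60), and to Frem2 (0.59) and Fras1 (0.57), which encode partner proteins of the epidermal basement membrane. Rasgef1b was closest to Lef1 (0.57). Mfap2 was closest to Gins4, a replication factor (0.54), and Pxdn, a matrix peroxidase (0.52), and lowest against Sox9 and Dmkn (both -0.54). Ctsl had only weaker partners, the highest being Fnbp1l, a membrane-shaping protein, at 0.48.

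Pathway genes paired by pathway in some cases and not in others. Gli1 gave a rho of 0.42 with Ptch1 and 0.52 with Tspan18. Lef1 was closest to Etv4 (0.59), and Etv4 was also the closest gene to Dusp6 (0.54). Mycn, a Myc family factor, gave 0.54 with Lef1. Axin2 gave 0.40 with Lef1 but 0.09 with Lgr5, and Id1 gave 0.24 with Id3, which is within the range of most pairs. Etv5, by contrast with Etv4, gave 0.26 with Dusp6.

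Lgr5 gave a rho of 0.05 with Lef1 and 0.30 with Cd34, and its closest genes were Zfp36l1, an RNA-binding protein (0.58), Cd200 (0.57) and Ctgf, a matricellular protein (0.52). Sox9 gave -0.52 against the hedgehog pathway gene Gli1 and -0.50 against the marker Foxi3. Krt15 was closest to the cadherin gene Fat2 and to Krt80 (both 0.57) and had -0.52 against Abi3bp. By list, the marker score gave 0.58 with the FGF and ERK response score and 0.55 with the WNT response score. Mki67 was seen in too few cells for its correlations to be read.

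Early-response genes formed a set of their own, with a median rho of 0.38 over the pairs of 16 members, against 0.02 over all pairs. These genes are known to be switched on within minutes by growth signals and by stress, including tissue dissociation. Fos ranged from 0 through a median TPM of 25.4 to 1441 and was seen in 43 cells, and Jun from 0 through 42.9 to 748 in 55. Both encode parts of the factor AP-1, and they gave a rho of 0.75 with 42 shared cells. Egr1, a zinc finger factor, gave 0.67 with Fos, Zfp36, an RNA decay factor, 0.62, Btg2, a growth inhibitor, 0.58 and Dusp1, an ERK phosphatase, 0.57. Without the 4 cells Fos and Jun gave 0.73.

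Promoters of these genes are shown because the members move together. RefSeq promoter windows (GRCm38.p6) were matched for 13 of 18 listed genes, and the 250 bases before the start site were searched on both strands for TGACGTCA, the letters of the cAMP response element, and for its first part TGACG, which every match of the former also holds. TGACGTCA was found in 2 of the 13, Dusp1 and Btg2, and in 1.55% of all 32851 windows. TGACG was found in 7 of the 13 (Fos, Dusp1, Btg2, Atf3, Nr4a1, Fosb and Junb) and in 17.8% of all windows. A match describes the letters alone. Capitals mark the match on the gene's strand, which reads CGTCA where TGACG lies on the other.
Fos, chr12:85473796-85473855, plus strand: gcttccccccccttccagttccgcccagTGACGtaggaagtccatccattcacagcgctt
Dusp1, chr17:26508582-26508641, minus strand: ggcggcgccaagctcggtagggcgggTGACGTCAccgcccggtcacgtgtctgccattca
Btg2, chr1:134079288-134079347, minus strand: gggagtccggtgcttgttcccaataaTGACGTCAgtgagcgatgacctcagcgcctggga
Atf3, chr1:191183334-191183393, minus strand: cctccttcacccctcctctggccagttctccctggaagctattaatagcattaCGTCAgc
Nr4a1, chr15:101266778-101266837, plus strand: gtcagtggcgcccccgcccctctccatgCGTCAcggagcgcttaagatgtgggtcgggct

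In Fos the match lay 62 to 66 bases before the start, in Atf3 3 to 7 and in Nr4a1 36 to 40, and those of Dusp1 and Btg2 lay farther out. Jun, the closest partner of Fos over the cells, had neither motif in its window, nor did Zfp36. The early-response score was opposed to the score of 15 hair germ genes (rho -0.42, and -0.34 without the 4 cells).

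**Figure D4:**
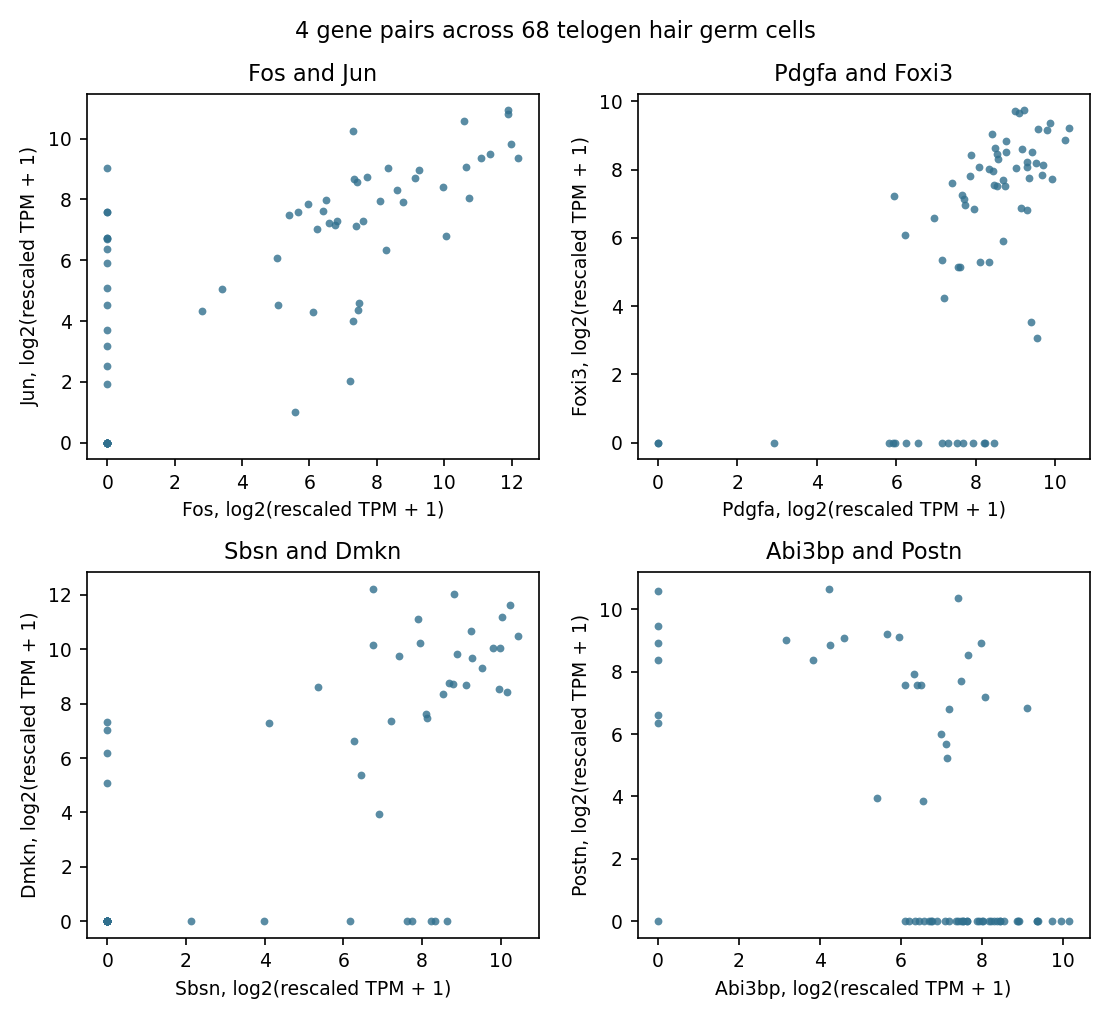
Gene pairs across 68 telogen hair germ cells, each axis log2(rescaled TPM + 1), 1 point per cell. Fos with Jun, Pdgfa with Foxi3 and Sbsn with Dmkn gave rho 0.75, 0.69 and 0.76, and Abi3bp with Postn gave -0.58. Cells at 0 for one gene form the lines along the axes.

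Against the other types, differences were taken as the mean of log2(TPM + 1) in germ cells minus that in the other type, over genes seen in at least 30% of cells of either, and a difference of 1 was used to count genes. Against the bulge, 910 of 8967 genes (10.1%) were higher by 1 or more in the germ and 3.74% lower, with a median difference of 0.29. Against first-stage anagen germ cells, 626 of 9476 (6.61%) were higher and 705 (7.44%) lower, with a median of 0.09. Against second-stage matrix cells, 1200 of 8886 (13.5%) were higher and 81 (0.912%) lower, with a median of 0.42. With rescaled TPM the share of higher among counted genes changed from 47.03% to 34.3% against first-stage cells and from 93.7% to 81.9% against matrix cells, and against the bulge it was 73.1% and 69.7%. The balance turned against the bulge with a pseudocount of 10, to 47.4% higher, and against first-stage cells by the log2 ratio of mean TPM, to 77.7% higher. Against first-stage cells the median gene also moved, to -0.11. Without plate 902hg, which leaves 16 cells of the first stage, 21.4% of genes were higher and 4.04% lower. The median germ cell had 6334.5 genes seen, the bulge cell 5572, the first-stage cell 6750.5 and the matrix cell 5528, and the part of this in the counts was not tested.

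Of the bulge list, all 18 compared genes were lower in the germ, 17 of them by 1 or more, with a median of -2.99. Over all compared genes 3.74% were lower by 1 or more. The list holds known bulge genes and was chosen with earlier results of these data known. A lower level in the germ is therefore built in and tests nothing. Single germ cells reached bulge levels. The filter can let a gene in through the type where it is high. Dmkn had a difference of -6.14 from the bulge and Postn of -5.55, and both were seen in every bulge cell. Yet the highest germ cells held a TPM of 1598 for Dmkn and 507 for Postn, above the bulge means of 900 and 384.5. Cd34, one of the sort markers, had a difference of -6.00. Outside the list, the genes lower in the germ than in the bulge by 1 or more had a median rho of 0.31 with the bulge score among germ cells, and 89.4% of them were positive. The 838 genes higher in the germ had a median of -0.11 with 26.01% positive, beside -0.02 and 43.8% for all 8907 genes. The part of the number of genes seen per cell in these values was not tested.

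Gene groups differed by the type set against the germ. Over all compared genes, 10.1%, 6.61% and 13.5% were higher by 1 or more than in bulge, first-stage and matrix cells. Against first-stage cells 7.44% were lower by 1 or more, and against the bulge 3.74%. The median gene differed by 0.29, 0.09 and 0.42 from bulge, first-stage and matrix cells. Of 12 hair germ genes compared with the bulge, 6 were higher by 1 or more and 3 lower (median 0.88). That list also holds the markers Foxi3 and Pdgfa. Of the 5 genes of the Lgr5 locus and the sorted proteins, only 1 was higher than in the bulge (median -0.19). Of the WNT response genes, 5 of 11 compared were higher by 1 or more than in the bulge, 5 of 10 than in first-stage cells and 5 of 10 than in matrix cells, with medians of 0.63, 1.00 and 1.04. Of 8 FGF and ERK response genes compared, 4 were higher in the germ than in the bulge by 1 or more and none than in first-stage cells, with medians of 1.22 and 0.29. Also 4 of 8 were higher by 1 or more than in matrix cells (median 1.01). Oxidative phosphorylation genes were lower by 1 or more in 7 of 19 against first-stage cells (median -0.74). None were so against the bulge (median 0.36) or against matrix cells (median 0.10). Of 20 matrix glycoprotein genes, 18 were higher than in matrix cells, 12 of them by 1 or more (median 1.57), among them Thbs1, thrombospondin 1, at 3.83. For the bulge, 9 of 20 compared were higher by 1 or more and 2 lower (median 0.45). For first-stage cells, 5 of 20 were higher and 1 lower (median 0.39).

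Genes were also ranked against all 3 other types at once. By the germ mean minus the highest of the other means, the leading genes included the markers Ctsl (2.56), Abi3bp (2.16), Mfap2 (2.12) and Cxcl12 (1.73). The markers Rasgef1b, Foxi3 and Pdgfa were not among the leading genes. Because the markers were chosen for being high in these cells, a high place in this ranking is built in and tests nothing. Thbs1 had a gap of 1.88, with a mean of 116.1 against 45.3 in the bulge, and Adora2b, an adenosine receptor, one of 1.86.

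Tspan18 and Mycn followed with gaps of 1.77 and 1.75. Mycn had a mean TPM of 31.7 in the germ, 0.519 in the bulge, 7.09 in first-stage and 8.98 in matrix cells, and was seen in 69.1% of germ cells and 5.13% of bulge cells. Skint9, a butyrophilin-like gene, had a gap of 1.69 on a mean TPM of 5.12. It was at 0 in every bulge cell and had a mean of 6.04 in matrix cells, where it was seen in 11.7% of cells, so that the log2 ratio of mean TPM put it lower in the germ (-0.20). C2cd5, a vesicle protein, and Ttll10, a tubulin ligase-like enzyme, closed the list with gaps of 1.71 and 1.67.

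**Figure D5:**
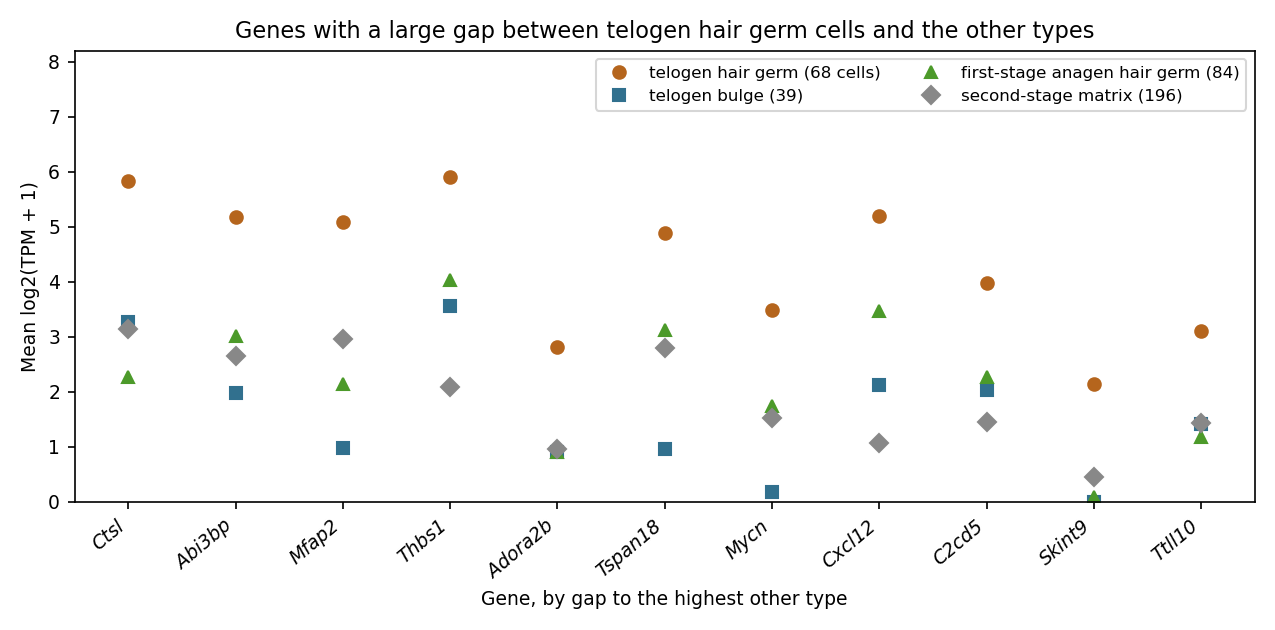
Mean log2(TPM + 1) of 11 genes, 1 symbol per type: 68 telogen hair germ, 39 telogen bulge, 84 first-stage anagen hair germ and the second-stage matrix cells. Genes are ordered by the germ mean minus the highest other mean. The gaps run from 2.56 for Ctsl to 1.67 for Ttll10. The groups are 1 sample each, so no error over samples is drawn.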

How the data were processed

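Expression was measured by Smart-seq2 in single cells. Per the submitters' processing notes, the authors used Bowtie2 2.2.9, RSEM 1.2.30 and the mm10 build, and deposited TPM, which are per length and sum to a fixed total in each cell, so depth is not recorded and precision cannot be given from it. In germ cells, ribosomal RNA took a median of 53.0% of TPM (42.2 to 62.1), spike-ins 10.8%, mitochondrial genes 1.67% and other genes 33.9%. The ribosomal RNA rows (358) came from GENCODE M21 biotypes plus Gm15662, Gm26917 and Yam1, picked after seeing their levels. The authors' deposited cell type labels, which are names and not a measure, gave the types.

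From these values, levels, shares of cells (TPM 1 or more, exact binomial intervals at 95%, which cover the number of cells only), CV residuals (20 bins of level), Spearman correlations, list scores and differences of mean log2(TPM + 1) with a pseudocount of 1 were computed with Python 3.11.15, NumPy 2.4.6, pandas 2.3.3 and SciPy 1.17.1, and the code was tested on simulated data. No doublet caller was run on these plate-sorted cells. The 53 gene lists, the 7 markers and the type itself were chosen with earlier results of these data known. Genes were named by rule: the markers, up to 5 members of highest mean per list and the one seen most often, the 20 largest CV residuals with a mean TPM of at least 20, the 5 closest and 3 most opposed genes of 17 anchor genes, the 20 highest pairs and the 12 largest gaps, without predicted genes, pseudogenes or ribosomal protein genes. Other pathway pairs, the lowest pairs, the component genes and the steadiest genes were picked after values were seen. Wells B4, B7, E10 and F1 were set apart after seeing the data: at least 3 markers of another type at a TPM of 100, or haemoglobin at 1000. The P30 tables were not used here, and some genes that these rules name are not reported here.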

Additional observations from a re-analysis of the deposited data

How the results depend on the processing

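The share of genes past a difference of 1 moved with the scale. With a pseudocount of 0.1, 27.03% of genes were higher and 7.86% lower than in the bulge, 15.4% and 18.03% than in first-stage anagen germ cells, and 32.1% and 2.97% than in matrix cells. With a pseudocount of 10 the shares were 1.01% and 1.13%, 0.918% and 1.02%, and 2.19% and 0.124%. With rescaled TPM, 15.5% were higher and 6.71% lower than in the bulge, 15.5% lower than in first-stage cells and 3.23% lower than in matrix cells. By the log2 ratio of mean TPM, 13.1% were higher and 3.76% lower than in first-stage cells, and 1.42% lower than in matrix cells. Without plate 902hg, 21.4% were higher and 4.04% lower than in the 16 first-stage cells left. The cause was not tested. Of the named differences, Skint9 against matrix cells changed sign, at -0.20 by the ratio of means. The 5 list score relations kept their sign, from -0.60 to -0.42 for bulge and marker scores, -0.65 to -0.49 for bulge and ribosomal protein scores, and 0.49 to 0.74 for the others. Of 26 named gene pairs run under alternatives, 1 value moved beyond counting error over 68 cells: Lef1 with Etv4 gave 0.73 as Pearson's correlation of log2 values. No paired analysis was possible because each type counts as 1 sample. The germ cells are of 1 plate, unknown depth and an unknown number of mice, and a value of 0 may be a transcript missed.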
